A study of Mus musculus with 7 samples.

Results

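The 10 genes described here encode the enzymes and carriers that bring long-chain fatty acids into the mitochondrion and oxidise them there, and regulators of those genes. They are Cpt1a, Slc25a20 and Cpt2 of the carnitine shuttle, the acyl-CoA dehydrogenases Acadvl, Acadl and Acadm, the trifunctional protein subunits Hadha and Hadhb, the nuclear receptor Pparg and the coactivator Ppargc1b. They were taken by symbol from the deposited gene table, and all 10 were found among its 25571 rows. RNA came from macrophages sorted on CD11b out of orthotopic T387 glioblastoma xenografts in the brains of NSG mice, a strain that lacks T cells, B cells and NK cells. The 4 treated samples came from mice dosed orally with Pracinostat, which blocks zinc-dependent histone deacetylases. The dose was 30 mg/kg, repeated 4 times weekly over 3 weeks and begun on day 7 after implantation. The 3 control samples came from mice that received the DMSO-containing solvent alone. The labels name no age, sex or animal for a sample. They call the samples biological replicates, and the p-values measure only the spread between these samples.

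Long-chain fatty acids enter the mitochondrial matrix as carnitine esters. CPT1 forms the ester at the outer membrane and is the step that malonyl-CoA inhibits, the carnitine-acylcarnitine translocase carries it across the inner membrane, and CPT2 restores the acyl-CoA inside. Chain-length-specific dehydrogenases and the membrane-bound trifunctional protein then shorten the chain round by round and pass electrons to the respiratory chain. PPAR receptors bind DNA with RXR partners, are activated by fatty acids, and switch on genes of lipid uptake, storage and oxidation, with PGC-1 proteins as coactivators. In mouse macrophages PPAR-gamma and PGC-1beta are known for their part in the oxidative programme of alternative activation.

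Counts per library ran from 10142753 to 16950597, and detected genes from 16319 to 19244. Itgam, which encodes CD11b, was at 1318 to 2580 CPM (CPM being counts scaled to a common library size, with TMM factors). Ptprc, the leukocyte antigen CD45, was at 472 to 733 CPM. Csf1r, the macrophage growth factor receptor, was at 1741 to 3004 CPM, as the labelled cell type would have it. Itgam is no independent check, since the cells were sorted on CD11b, and Ptprc is shared by other leukocytes. Of 7 listed adipocyte markers, the 2 in the table (Plin1 and Ucp1) held at most 0.000301% of counts in any library. Fibroblast markers held 0.11% of counts in DMSO replicate 2 and 0.067% in Pracinostat replicate 1, and between 0.00192 and 0.00619% elsewhere. Summed shares of 8 classes of cell markers had exact permutation p-values of at least 0.286, in a design where the smallest possible is 0.0286 and a single class could not go below 0.229 after adjustment. By gene, endothelial and mural markers were negative for 7 of 9 (median -0.48), and all 9 were lowest in Pracinostat replicate 4. Neutrophil markers were positive for 7 of 7 (median 0.59), with medians that varied as widely within the groups. In bulk RNA, fewer cells of a type and less RNA per cell cannot be told apart.

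None of the 10 genes differed between Pracinostat and DMSO beyond the replicate spread once p-values were adjusted over all genes. By edgeR 0 of 10 had an adjusted p under 0.05, as did 0 of all 15822 genes tested (0%), each member standing at an adjusted p of 1.00. DESeq2 also called 0 members, against 0.171% of all genes. The fold changes were negative for 8 members and positive for 2, with a median of -0.24 on the log2 scale, against 0.02 over all genes tested, of which 52.3% were positive. The members with a negative value were Cpt1a, Cpt2, Acadm, Acadl, Acadvl, Hadha, Hadhb and Pparg, and those with a positive value were Slc25a20 and Ppargc1b. At an unadjusted edgeR p under 0.05, 2 members were lower, Hadhb and Cpt2, against 1.37% of all genes, and 0 were higher, against 2.81%. Groups of CPM values that did not overlap were found for 1 member on the lower side, Hadhb, against 2.59% of all genes, and for 0 on the higher side, against 3.51%.

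**Figure D1:**
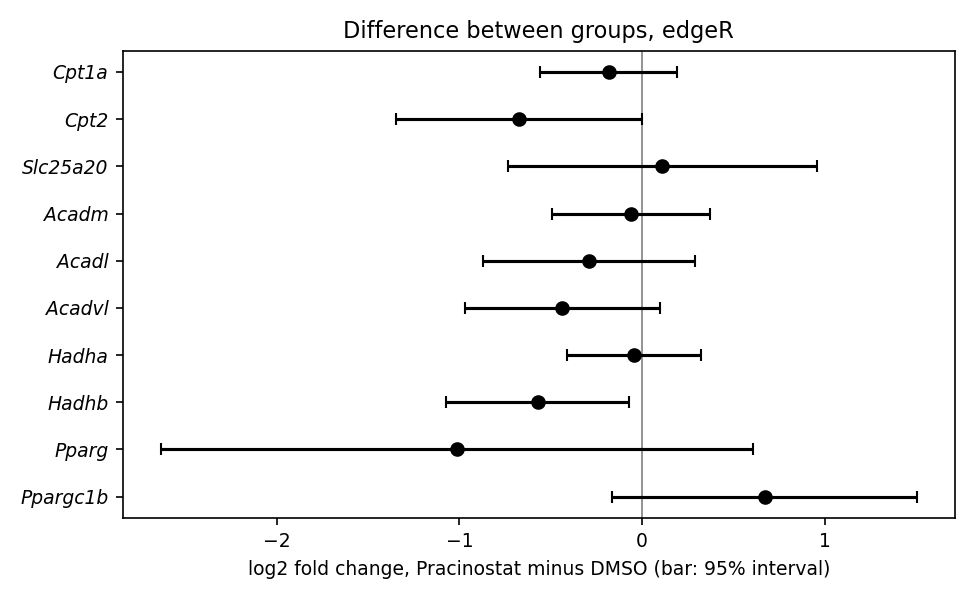
Log2 fold change of each gene (horizontal axis, Pracinostat minus DMSO) from the edgeR fit over all genes, with its 95% interval as a bar. The intervals of Hadhb (-1.07 to -0.07) and Cpt2 lie below 0 before adjustment for the number of genes, and those of the other 8 genes include 0.

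With DMSO the 10 genes together took up 0.062 ± 0.003% of counts (SD, n = 3). With Pracinostat their share was 0.054 ± 0.00544% (SD, n = 4). The lowest Pracinostat share was 0.0489% in replicate 1 and the highest, 0.06% in replicate 4, lay just under the lowest DMSO share of 0.0602%. These are shares of total counts, without the TMM factors, which ran from 0.96 to 1.04 over the libraries. That gap is small beside the spread of those factors, so it does not separate the groups, and it was not tested. Divided by transcript length, Cpt1a and Hadha were the most abundant with DMSO, at 47.3 ± 5.41 and 44.1 ± 9.79 CPM per kb (SD, n = 3). Their ranges over the DMSO libraries overlapped, and both lay above every other member. Acadm, Acadvl, Hadhb and Acadl followed at 24.5, 23.3, 20.3 and 20.1 CPM per kb, each overlapping its neighbour in that order. Cpt2, Slc25a20 and Pparg formed a lower step, at 9.39, 6.84 and 6.14 CPM per kb, again overlapping from neighbour to neighbour. Ppargc1b stood lowest, at 2.48 ± 0.612 CPM per kb (SD, n = 3), below every DMSO value of Pparg. With Pracinostat, the mean of Ppargc1b (3.95 ± 1.31 CPM per kb, SD, n = 4) was above that of Pparg (3.04 ± 2.81 CPM per kb, SD, n = 4).

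**Figure D2:**
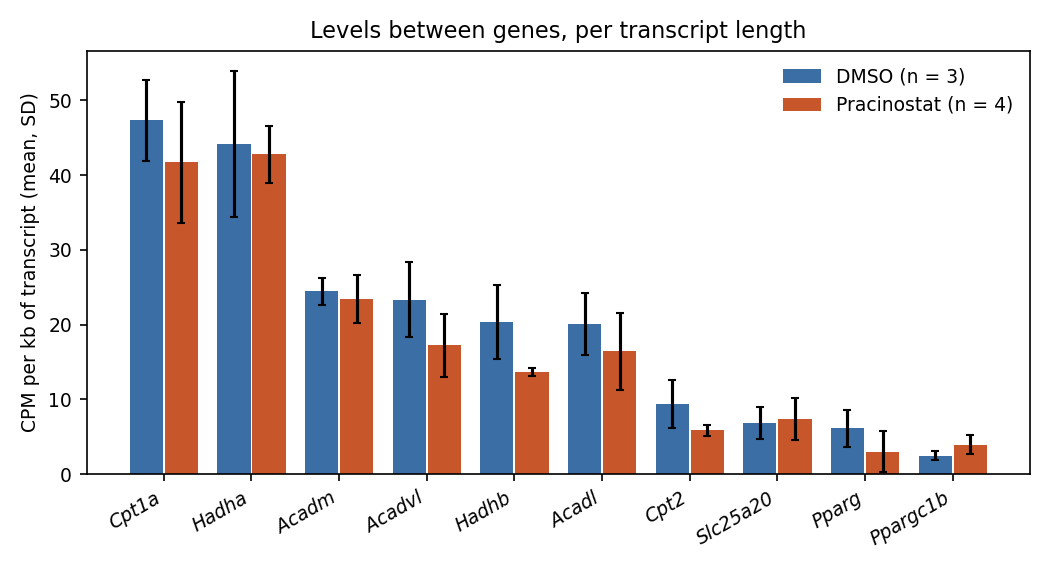
Level of each gene in CPM per kb of its longest principal transcript (vertical axis), as the mean of 3 DMSO or 4 Pracinostat libraries with the SD as a bar, in the order of the DMSO means. Cpt1a and Hadha stand above the other 8 genes, and Ppargc1b is lowest with DMSO.

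Cpt1a, the malonyl-CoA-sensitive gate to mitochondrial oxidation, was at 182, 203 and 228 CPM in the DMSO libraries and at 139, 179, 177 and 225 CPM in Pracinostat replicates 1 to 4. Pracinostat replicates 1, 2 and 3 lay below all DMSO values, and replicate 4 lay among them. The fold change was -0.18 ± 0.18 (log2, ± SE), with a 95% interval of -0.56 to 0.19. This interval leaves room for a decrease of up to 0.56 on the log2 scale, or a smaller increase.

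Cpt2, the inner-membrane enzyme that hands the acyl group back to CoA, was at 30.9, 16.3 and 19.6 CPM with DMSO and at 13.6, 13.8, 16.3 and 12 CPM with Pracinostat. DMSO replicate 1 stood high, and DMSO replicate 2 and Pracinostat replicate 3 met at 16.3 CPM, so that the groups touched. The fold change was -0.67 ± 0.31, and without DMSO replicate 1 it was -0.36. Slc25a20, the translocase between both enzymes, was at 16.7, 10.3 and 9.6 CPM with DMSO and at 20, 12.2, 7.87 and 12.5 CPM with Pracinostat, with the lowest and the highest value both in the treated group. Its fold change of 0.11 ± 0.40 had an interval of -0.73 to 0.95 and was -0.16 without Pracinostat replicate 1.

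The muscle-type isoform Cpt1b was read in the treated libraries only. It had 0 counts in each DMSO library and 31, 98, 65 and 1 counts in Pracinostat replicates 1 to 4. Pooled over the group, Pracinostat libraries held 3.45 CPM of Cpt1b. This is at least 46.8-fold the 0.0736 CPM that 3 counts over the summed DMSO libraries would give. That fold covers counting error only, since pooling ignores the spread between the libraries. The edgeR adjusted p was 0.971, and DESeq2 called the gene (adjusted p = 0.0126). The gene passed the count filter through treated libraries only, so this call is no independent support. Over the alternatives fitted with edgeR, its adjusted p ran from 0.0505 without the low-count filter to 1.00, and with any of Pracinostat replicates 1 to 3 left out it fell under the count filter. Pracinostat replicate 4, at 1 count, was barely above the DMSO libraries. How many of all genes were read in treated libraries only was not counted. Detected genes were 16319 to 18065 in the DMSO libraries and 17795 to 19244 in the Pracinostat libraries. The astrocyte marker Aqp4 also had 0 counts in each DMSO library, and 4, 19, 18 and 1 counts in Pracinostat replicates 1 to 4. It was too low to be tested and was 1 of 8 listed astrocyte markers. Of the 7 tested, 5 were negative and 2 positive (median -0.11). All 8 together held 0.0144% of counts with DMSO and 0.01365% with Pracinostat (means). The neighbouring gene Chkb, with which mouse Cpt1b is known to share read-through transcripts, was looked up after the values of Cpt1b were seen. Chkb ran from 35 to 57.4 CPM with DMSO and from 22.1 to 38.2 CPM with Pracinostat. The division of reads between these 2 genes was not tested. The brain-type isoform Cpt1c had at most 1.18 CPM in any library and was not tested.

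**Figure D3:**
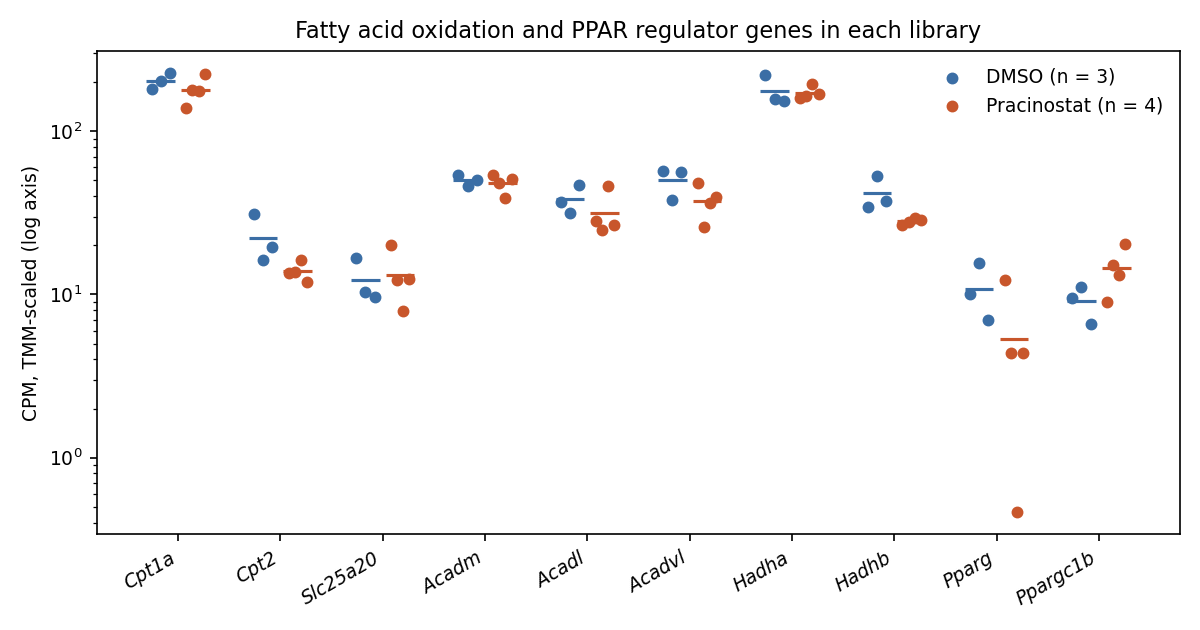
CPM of each gene (vertical log axis) in the 3 DMSO and 4 Pracinostat libraries (points), with the mean of each group as a line. The groups overlap or touch for every gene but Hadhb, and Pparg in Pracinostat replicate 3 stands apart at 0.463 CPM.

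The dehydrogenases act on different chain lengths. Acadvl encodes the membrane-bound enzyme for very long chains and was at 57.4, 38 and 56.4 CPM with DMSO and at 48.1, 25.9, 36.2 and 39.5 CPM with Pracinostat. Pracinostat replicates 2 and 3 lay below all DMSO values and the other 2 did not, for a fold change of -0.44 ± 0.25 with an interval of -0.97 to 0.10. Acadl, the long-chain dehydrogenase, was at 37, 31.4 and 47 CPM with DMSO and at 28, 24.8, 46.2 and 26.7 CPM with Pracinostat. Replicate 3 stood at the level of the highest DMSO library while the other 3 treated libraries lay below all DMSO values. Acadl had a fold change of -0.29 ± 0.27, which was -0.54 without Pracinostat replicate 3 and -0.12 without DMSO replicate 3. Acadm, the medium-chain dehydrogenase, varied least of the 10, with 53.8, 46.4 and 50 CPM with DMSO and 54.2, 48, 38.8 and 50.8 CPM with Pracinostat, and its highest value was 1.4 times its lowest. Its fold change was -0.06 ± 0.20 with an interval of -0.49 to 0.37.

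Hadha and Hadhb encode the alpha and beta subunits of the trifunctional protein, which catalyses the hydratase, dehydrogenase and thiolase steps on long chains. In the mouse genome the genes lie head to head, with 272 bases between their RefSeq starts. The 250 bases of this interval next to Hadhb are shown because they lie upstream of both genes, whose counts are compared next. The bases next to the start of Hadha are not shown and were not searched. The stretch shown is chr5:30155003-30155252 on the plus strand, and it ends at the base before the start of Hadhb. It is from RefSeq in GRCm38.p6, a different build from the GRCm39 of the counts. Capitals mark GGGCGG, a GC box of the kind Sp1 binds, searched on both strands. It was found 2 times here and in 32.7% of the 250-base stretches upstream of 32851 RefSeq starts, so a match does not set this stretch apart.
Hadhb-Hadha interval: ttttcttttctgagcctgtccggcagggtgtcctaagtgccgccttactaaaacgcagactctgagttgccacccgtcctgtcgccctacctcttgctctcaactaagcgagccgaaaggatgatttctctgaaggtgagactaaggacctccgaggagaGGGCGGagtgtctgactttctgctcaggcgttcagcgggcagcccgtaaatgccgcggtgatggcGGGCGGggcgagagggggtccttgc

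Hadha was at 223, 157 and 152.5 CPM with DMSO and at 160, 164, 194 and 169 CPM with Pracinostat, all 4 within the DMSO range. Its fold change was -0.05 ± 0.17, with an interval of -0.41 to 0.32, and 0.16 without DMSO replicate 1. Hadhb was at 34.2, 53.2 and 37.5 CPM with DMSO and at 26.6, 27.7, 29.4 and 28.4 CPM with Pracinostat. The 4 treated libraries lay close together below all 3 control libraries. The fold change of Hadhb was -0.57 ± 0.23 (edgeR adjusted p = 1.00), and without DMSO replicate 2, the library with the highest value, it was -0.36. It was -0.32 without both libraries rich in fibroblast transcripts.

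The log2 ratio of Hadha to Hadhb CPM was 2.70, 1.56 and 2.02 in the DMSO libraries and 2.59, 2.57, 2.72 and 2.57 in the Pracinostat libraries. The ratio was nearly constant with Pracinostat (2.61 ± 0.07, SD, n = 4) and spread over more than 1 log2 unit with DMSO (2.10 ± 0.58, SD, n = 3), and the groups overlapped because DMSO replicate 1 stood at the treated level. The difference of 0.52 did not pass a two-sided exact permutation test (p = 0.114, where the smallest possible is 0.0286). Without DMSO replicate 2, which carried the most fibroblast transcripts, the difference was 0.25. The part of those cells in the ratio was not tested. Across the 7 libraries the 2 genes had no relation past the test on the log2 scale, with Pearson's r = -0.19 (exact permutation p = 0.674) and Spearman's rho = -0.25 (exact permutation p = 0.595), the only relation between genes computed. Without DMSO replicate 1 and Pracinostat replicate 3, the 2 libraries farthest from the median of Hadha, Pearson's r was -0.61 (exact permutation p = 0.325). It was -0.45 with each gene centred on its group means, and -0.00544 with no scaling beyond total counts. Each group holds too few libraries for a value of its own.

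**Figure D4:**
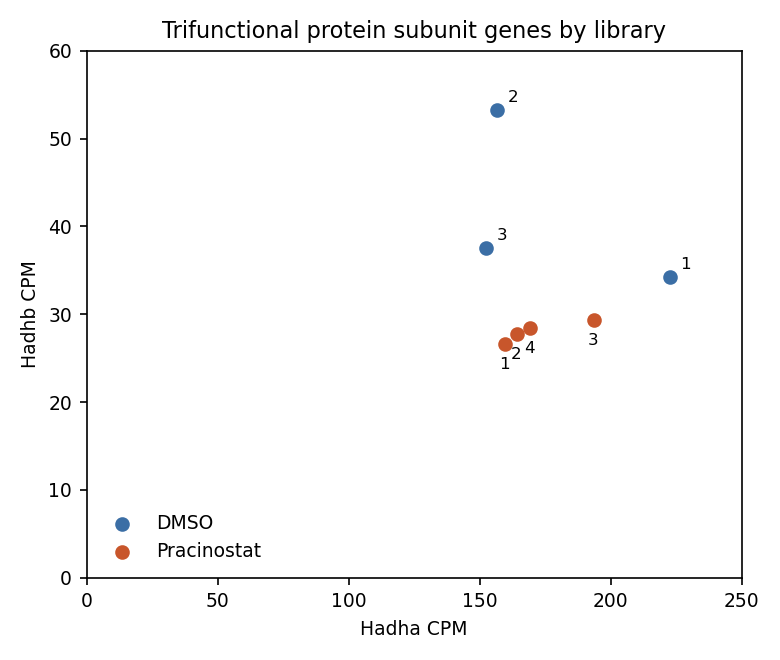
CPM of Hadhb (vertical axis) against CPM of Hadha (horizontal axis) in each library, numbered by replicate. The 4 Pracinostat libraries lie close to a line at 26.6 to 29.4 CPM of Hadhb, and the 3 DMSO libraries lie above them at 34.2 to 53.2 CPM.

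Pparg, the receptor of the set, was at 10.1, 15.5 and 6.96 CPM with DMSO and at 12.3, 4.38, 0.463 and 4.35 CPM with Pracinostat. Pracinostat replicates 2, 3 and 4 lay below all DMSO values, and replicate 1 lay among them. Replicate 3 had 7 counts, which allows 0.186 to 0.954 CPM (exact Poisson 95% interval, counting error only), under the interval of every other library. The highest value was 33.5 times the lowest, against at most 3.09 times for the other 9 members. The fold change was -1.01 ± 0.75 with an interval of -2.63 to 0.61, and leaving out single libraries moved it to -0.63 (Pracinostat replicate 3), -0.66 (DMSO replicate 2) or -1.82 (Pracinostat replicate 1). The biological coefficient of variation that edgeR estimated for Pparg was 69.2%, against 54.2% on the trend for genes of its level, an excess larger than that of 93.8% of genes.

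Ppargc1b, which encodes PGC-1beta, went the other way, at 9.51, 11 and 6.63 CPM with DMSO and 9, 15.2, 13.1 and 20.5 CPM with Pracinostat. Pracinostat replicates 2, 3 and 4 stood above all DMSO values and replicate 1 among them, whereas Pparg lay below all DMSO values in replicates 2 to 4. In the DMSO libraries both genes were highest in replicate 2 and lowest in replicate 3, and no relation between them was computed. The fold change of Ppargc1b was 0.67 ± 0.39 with an interval of -0.16 to 1.5, and 0.44 without Pracinostat replicate 4. Its relative Ppargc1a (PGC-1alpha) had 0 counts in the 3 DMSO libraries and in Pracinostat replicate 1, and 30, 14 and 2 counts in replicates 2, 3 and 4, too few to be tested. Ppard was the more abundant receptor, at 92.5, 59.2 and 122.7 CPM with DMSO and at 105, 90.8, 92.6 and 108 CPM with Pracinostat. Its fold change was 0.12 ± 0.22, and -0.12 without DMSO replicate 2, its lowest library. Per kb of transcript, Ppard stood at 27.9 ± 9.69 CPM per kb (SD, n = 3) with DMSO against 6.14 ± 2.45 CPM per kb (SD, n = 3) for Pparg. The partner Rxra was at 179 ± 18 CPM (SD, n = 3) and 170.5 ± 10.4 CPM (SD, n = 4). Ppara was not analysed here.

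Genes commonly reported as PPAR targets leaned to the lower side. Of 20 listed, 17 were in the table and 16 were tested, of which 13 had negative and 3 positive fold changes, with a median of -0.49 against 0.02 over all genes, and 0 passed the edgeR test. Groups did not overlap for 2, both lower (2.59% of all genes), Ucp3 and Acot1. For Ucp3 this was a near tie at a low level, with 1.10 CPM in DMSO replicate 1 and 1.09 CPM in Pracinostat replicate 1. Over the other fits the median of the list ran from -0.59 (without Pracinostat replicate 1) to -0.33 (limma-voom). It was -0.38 without Pracinostat replicate 3, and -0.36 with the replicate block, where 5 of 16 were positive. The 2 with the smallest p were Nr1h3, the oxysterol receptor LXR-alpha (-1.03 ± 0.49), and Acot1, a cytosolic acyl-CoA thioesterase (-0.91 ± 0.47). Nr1h3 was at 21.4, 19.8 and 18.6 CPM with DMSO and at 19.1, 11.1, 3.31 and 5.32 CPM with Pracinostat. The treated libraries ran from the DMSO level in replicate 1 to far below it in replicate 3. The lipid droplet coat gene Plin2 was at 798 ± 86.6 CPM (SD, n = 3) and 656 ± 68.9 CPM (SD, n = 4), a fold change of -0.28 ± 0.15. Angptl4, an inhibitor of lipoprotein lipase, was at -0.54 ± 0.37, and at -0.05 without DMSO replicate 1, its highest library. Pdk4, the kinase that shuts off pyruvate dehydrogenase, stood at only 0.865 to 5.2 CPM.

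The PPAR targets also differed between the libraries of the treated group. Of the 16, 7 had their lowest level in Pracinostat replicate 3, where 14.4% of all genes tested had theirs. The list's median log2 CPM, each gene centred on its mean over the 7 libraries, was 0.20 to 0.39 in the DMSO libraries, 0.33 in Pracinostat replicate 1, -0.07 in replicate 2, -0.46 in replicate 3 and -0.43 in replicate 4. Chosen after their values were seen, the fatty acid carrier Cd36 was at 66.4, 94.2 and 95.7 CPM with DMSO and at 96.2, 56.1, 17.1 and 43.3 CPM with Pracinostat. The fatty acid binding protein Fabp4, chosen the same way, was at 20.1, 22.8 and 21 CPM with DMSO and at 29.3, 11.5, 4.5 and 8.7 CPM with Pracinostat. Like Pparg, both were highest in replicate 1 and lowest in replicate 3 among the Pracinostat libraries, as were 7 of the 16 targets. The share of all genes tested with this order was not counted, so the count does not set the targets apart. Others went the other way, with Pdk4 (3.97 CPM), Angptl4 (17.6 CPM) and Acot2 (15.7 CPM) highest in replicate 3. Ucp3 had 0 counts in replicates 2, 3 and 4. Endothelial markers, lowest in replicate 4, had a median centred log2 CPM of -1.77 there, and their part in the target values was not tested.

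Monocyte-derived macrophage markers also differed between the treated libraries, and no relation to the PPAR target values was computed. A list of 12 was drawn up with their pattern already known, and 10 of them were lowest in Pracinostat replicate 3, among them Ccr2, a chemokine receptor of monocytes, which was at 12 CPM there and between 15 and 66.5 CPM elsewhere. In the comparison of groups 10 of the 12 were negative, and 3 of these had an unadjusted edgeR p under 0.05 (1.37% of all genes on the lower side), on a list that is no independent evidence. The median centred log2 CPM of the list was -1.59 in that library and -0.23 to 0.94 in the others. Its summed share of counts was 0.46 to 0.643% with DMSO and 0.377 to 1.04% with Pracinostat, the highest value being that of replicate 3, where Fn1 alone was at 9829 CPM. No marker of the list was at 0 in replicate 3. Microglia markers (9 tested of 10 listed) held 0.566% of counts in replicate 3, against 0.282 to 0.384% in the other 6 libraries. Like the list of 12, this list was added to the 8 fixed classes and is no independent evidence. The part of macrophage origin in the Pparg and PPAR target values was not tested.

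**Figure D5:**
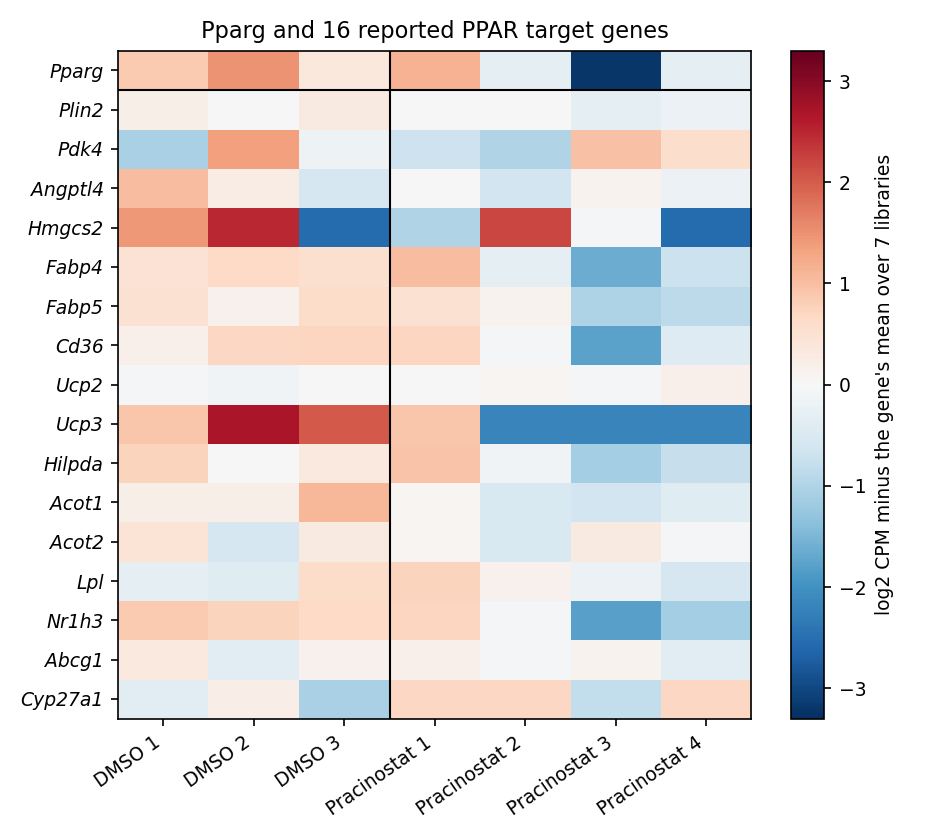
Colour gives log2 CPM after subtraction of each gene's own mean, in log2 units, for Pparg (top row) and 16 reported PPAR target genes (other rows) in each library (columns, 3 DMSO left of the line and 4 Pracinostat right of it). Pracinostat replicate 3 holds the lowest Pparg value (-3.21) and 7 of the 16 lowest target values.

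Of 15 other mitochondrial beta-oxidation enzymes tested, 11 were negative and 4 positive, with a median of -0.09, and 0 passed the edgeR test. The split was 8 to 7 without DMSO replicate 1 and with the replicate block. The median was -0.05 without DMSO replicate 1, -0.17 without DMSO replicate 2, -0.20 without Pracinostat replicate 2 and -0.21 without both fibroblast-rich libraries. Groups did not overlap for 2 on the lower side (2.59% of all genes) and 1 on the higher side (3.51%). Those lower were Etfa and Etfb, the subunits of the flavoprotein that takes electrons from every acyl-CoA dehydrogenase. Etfa was at 35.7, 36.8 and 31.8 CPM with DMSO and at 30.6, 24.7, 25.1 and 23.9 CPM with Pracinostat (-0.41 ± 0.23), and Etfb was at 48.8 ± 6.44 CPM (SD, n = 3) and 35.6 ± 6.07 CPM (SD, n = 4) (-0.45 ± 0.22). Their partner Etfdh, which passes the electrons on to ubiquinone, was at -0.01 ± 0.22. Acaa2, the thiolase of shorter chains, was at -0.59 ± 0.29, with values of 31.1 to 50.2 CPM with DMSO and 18.2 to 39.6 CPM with Pracinostat that overlapped. Acads, the short-chain dehydrogenase, was at -0.23 ± 0.23 and Hadh, the hydroxyacyl-CoA dehydrogenase of shorter chains, at -0.36 ± 0.27. The gene on the higher side was Acad11, at 7.28 to 10.6 CPM with DMSO and 11.3 to 14.6 CPM with Pracinostat.

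Of 11 genes of malonyl-CoA and AMPK control, 8 were positive and 3 negative, the median was 0.13, and 0 passed the edgeR test. The positive side was mostly AMPK, the kinase that inhibits the carboxylases: 7 of 8 genes for its subunits and upstream kinases were positive (median 0.19). Of the 3 enzymes that make or break down malonyl-CoA, 1 was positive and 2 were negative. Acaca, the cytosolic carboxylase that makes malonyl-CoA, was at 102, 62.6 and 90.1 CPM with DMSO and at 145, 154, 168 and 86 CPM with Pracinostat. Replicates 1 to 3 stood above all DMSO values and replicate 4 among them (0.70 ± 0.24, edgeR adjusted p = 1.00). Mlycd, which breaks malonyl-CoA down, was at 28.6, 13.8 and 19.6 CPM with DMSO and at 14.7, 6.58, 15.6 and 11.7 CPM with Pracinostat (-0.77 ± 0.37), with groups that overlapped. Acacb, the carboxylase at the mitochondrial surface, was near the limit of detection, at 0.29 to 5.58 CPM.

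Fatty acid activation and carnitine genes had 6 of 11 positive, a median of 0.04 and 0 passing the edgeR test. The sign of that median was not stable: it was -0.08 to 0.04 with 1 library left out, negative for 6 of the 7 omissions, and -0.06 with the replicate block (4 of 11 positive). Without Pracinostat replicate 3, 3 of 10 were positive. Slc27a1, a fatty acid transport protein, was at 142 ± 46.8 CPM (SD, n = 3) and 93.1 ± 26.7 CPM (SD, n = 4) (-0.61 ± 0.27). Acsl1, a long-chain acyl-CoA synthetase, was at -0.22 ± 0.22, Crat, the carnitine acetyltransferase, at -0.12 ± 0.18, and Slc22a5, the carnitine importer, at 0.64 ± 0.71. Peroxisomal beta-oxidation had 7 of 15 positive with a median of -0.03, and 0 passed the edgeR test. With 1 library left out, that median ran from -0.08 (without Pracinostat replicate 3) to 0.05 (without Pracinostat replicate 1, 9 of 15 positive). The smallest p of that list was that of Abcd2, a transporter of the peroxisomal membrane (0.71 ± 0.28, edgeR adjusted p = 1.00). The other receptors, partners and coregulators of PPAR had 11 of 20 positive with a median of 0.02, and 0 passed the edgeR test. With 3 other scalings and with DESeq2 the split was 10 to 10. It was 7 positive to 12 negative without Pracinostat replicate 2 (median -0.06), and 12 to 8 with the replicate block (median 0.09). Those with the smallest p were Nrf1, a factor for mitochondrial genes (0.44 ± 0.25), and Med1, the Mediator subunit that binds nuclear receptors (0.27 ± 0.18).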

How the data were processed

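Per the submitters' processing notes, the tools were DESeq2, RSEM, STAR, Trim Galore, MultiQC and FastQC, and the mouse build was GRCm39. No versions, roles or order are given. The authors deposited expected counts (whole numbers, not normalized), with 1 row for each gene symbol. The sources used here do not give the annotation or the strand setting, so values of overlapping and antisense genes are uncertain. Libraries were made from 1 ng of total RNA. The labels state 30 mg/kg as the dose and 3 mg/kg for the prepared drug.

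All 7 libraries were fitted with edgeR 4.0.16 (R 4.3.3), with TMM scaling, filterByExpr (minimum count 10), a robust quasi-likelihood fit, a two-sided test and Benjamini-Hochberg adjustment over 15822 genes (threshold 0.05). Fold changes are log2, Pracinostat minus DMSO, ± SE. Lengths are of the longest APPRIS principal transcript in GENCODE vM21. All 10 members passed the count filter. The members and lists were chosen with earlier results of these data known. Besides the members and 20 genes chosen for their role, up to 2 genes with the smallest p were named from each other list. Some genes that this rule selects are not reported here. The fit was tested on simulated data. No pair of libraries was alike enough to be a duplicate (lowest chi-square divided by its degrees of freedom, 30.04). Alternatives covered scaling, filter, DESeq2 1.42.0, limma-voom 3.58.1, robust estimation, the replicate block and leaving out libraries. Leaving out both fibroblast-rich libraries was added after the data were seen.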

Additional observations from a re-analysis of the deposited data

Results flagged for a closer look

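Values of the 4 Pracinostat libraries were screened with Dixon's 95% limit, under which the extreme library is separated from its neighbour by more than 0.829 of the group's range. Of 48 values 5 did so, and chance flags about 1 in 20 such groups. Acadl was highest in replicate 3, at 46.2 CPM against 24.8 to 28 CPM in the other Pracinostat libraries and 31.4 to 47 CPM with DMSO. The log2 ratio of Hadha to Hadhb was highest in replicate 3, at 2.72, where the other Pracinostat libraries had 2.57 to 2.59 and the DMSO libraries 1.56 to 2.70. Microglia markers held 0.566% of counts in replicate 3, against 0.337 to 0.37% and 0.282 to 0.384%. That list was added to the 8 fixed classes of cell markers, so its flag is no independent one. Fibroblast markers held 0.067% in replicate 1, against 0.002 to 0.00412% and 0.00192 to 0.11%. Adipocyte markers held 0.000301% in replicate 2, against 0 to 4.57e-05% and 0 to 3.15e-05%. The 3 DMSO libraries were too few for this screen.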

How the results depend on the processing

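The count of 0 members called held in all 17 other fits, and their median log2 fold change ran from -0.30 to -0.13. Over all genes, 0 called became 63 with no low-count filter, 27 with DESeq2 and 4 with the replicate block, and 0 to 3 when 1 library was left out (3 without DMSO replicate 3). Nothing in the labels ties equal replicate numbers to a shared animal or day. Samples with equal numbers had correlated deviations of -0.0352 to 0.0728, and those with unequal numbers of -0.074 to 0.0511, so no pairing was assumed. The block leaves out Pracinostat replicate 4. Of 170 refits of a member, 5 turned its sign: Slc25a20 (-0.27 without both fibroblast-rich libraries, and -0.16 to 0.40 with 1 library left out), Acadm (-0.12 to 0.027 with 1 left out) and Hadha (-0.14 to 0.16 with 1 left out). With 1 library left out, signs also turned for Ppard (-0.12 to 0.39), Rxra (-0.12 to 0.015), Acads (-0.37 to 0.029), Etfdh (-0.11 to 0.14), Acacb (-0.77 to 0.27), Crat (-0.20 to 0.035) and Pdk4 (-0.62 to 0.79). Without both fibroblast-rich libraries Ppard was at -0.14, Etfdh at 0.16 and Pdk4 at 1.01. With the replicate block Etfdh was at 0.028, Acacb at 0.27 and Slc22a5 at -0.22, and with limma-voom Etfdh was at 0.015. The Hadha and Hadhb correlation ran from -0.43 to 0.17 with 1 library left out and was 0.0174 without both fibroblast-rich libraries. The ratio difference ran from 0.25 to 0.82 with 1 left out. The cause of these turns was not tested. Cpt1b was newly called by DESeq2 alone. With 3 against 4 libraries, the width of each gene's interval limits what could be detected.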
